A study of Rattus norvegicus with 34 samples.

Results

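*Icam1*, *Tnfrsf12a*, and *Sphk1* are 3 of the 44 specific genes on the TaqMan microfluidic card used for rat retinae. They were chosen by name, as genes of vascular and TNF pathway signaling, with earlier results of these data known. All 69 of their wells had a quantification cycle (Cq, the PCR cycle at which the probe signal crosses its threshold). *Icam1* encodes the adhesion molecule that leukocytes bind through their integrins. *Tnfrsf12a* encodes Fn14, the receptor of the TNF family cytokine TWEAK, and *Sphk1* encodes the kinase that phosphorylates sphingosine to the signaling lipid sphingosine-1-phosphate.

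Receptors of the TNF family, to which Fn14 belongs, signal to the NF-κB pathway, and *Icam1* is a textbook target of NF-κB on activated endothelium and glia. Sphingosine-1-phosphate acts on G protein-coupled receptors of endothelial and immune cells and is known for its effects on vascular permeability and leukocyte movement. In the retina, adhesion of leukocytes to capillaries through ICAM-1 has been studied mainly in diabetic retinopathy.

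Retinal RNA of 23 rats aged 9 weeks was analyzed, with 1 card, and thus 1 well per gene, for each rat. The 6 SD rats were uninjected Sprague Dawley animals. The 6 PKD rats were uninjected, homozygous for a transgene in which the CMV promoter drives a truncated polycystin-2, and lose photoreceptors and later pericytes. A further 5 PKD rats had received clodronate-coated liposomes (PKD + Clodronate) and 6 PKD rats control liposomes (PKD + Controlliposomes), 3 µl into the vitreous at 4 and again at 8 weeks of age. The CMV promoter is not restricted to a retinal cell type, and the PKD rats were male. The labels also name PBS-injected PKD rats and clodronate-treated SD rats, which were not analysed here.

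The 3 genes lie on chromosomes 8 and 10 of the rat assembly GRCr8. *Icam1* spans chr8:27829688-27841618 (11931 bases), *Tnfrsf12a* chr10:13211670-13213666 (1997 bases), and *Sphk1* chr10:102257413-102263086 (5674 bases). Because *Icam1* is a known NF-κB target, the RefSeq sequence ahead of the first annotated base of each was read 5′ to 3′ along the gene, at chr8:27829595-27829687 (plus strand, 93 bases), chr10:13213667-13213898 (minus strand, 232 bases), and chr10:102257163-102257412 (plus strand, 250 bases, ahead of the most upstream of 3 annotated starts). Capitals mark a GC box (GGGCGG or its reverse complement) or a 9-letter NF-κB form (GGAANTTCC), found by letters alone.
Icam1: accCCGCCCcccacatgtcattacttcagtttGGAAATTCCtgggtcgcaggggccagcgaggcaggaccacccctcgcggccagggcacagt
Tnfrsf12a: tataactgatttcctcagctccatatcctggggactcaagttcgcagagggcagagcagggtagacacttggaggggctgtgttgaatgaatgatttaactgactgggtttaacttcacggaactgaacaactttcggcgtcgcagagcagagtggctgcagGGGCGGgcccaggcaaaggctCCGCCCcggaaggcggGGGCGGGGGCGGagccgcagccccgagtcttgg
Sphk1: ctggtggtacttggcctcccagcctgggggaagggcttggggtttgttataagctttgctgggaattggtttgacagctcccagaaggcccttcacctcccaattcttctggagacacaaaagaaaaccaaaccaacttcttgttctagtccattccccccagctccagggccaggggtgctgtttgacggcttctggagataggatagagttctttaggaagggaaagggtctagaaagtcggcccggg
The *Icam1* stretch held 1 match to the 9-letter NF-κB form and 1 GC box, and *Tnfrsf12a* held 4 GC boxes. The *Icam1* matches lie at −218 to −210 and at −247 to −242 from the start site used for its promoter window, chr8:27829845. No capitals appear in the *Sphk1* stretch.

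Over all 33469 promoter windows of 300 bases in the table (250 before and 50 from the start site), 0.872% held the 9-letter NF-κB form and 33.1% held a GC box on either strand. The stretches printed above are shorter than these windows. The whole windows held 2 GC boxes for *Icam1*, 4 for *Tnfrsf12a*, and 1 for the middle of the 3 *Sphk1* starts. The longer NF-κB consensus, in 7.51% of the windows, matched none of the windows of the 3 genes. TGANTCA, the AP-1 motif, was in 7.33% of the windows and matched 1 of the 3 *Sphk1* windows, that of the middle start. TATAAA, in 14.2% of the windows, matched the *Icam1* window and the same middle *Sphk1* window. The matches describe letters in these windows and no binding was measured.

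The Cq of each gene was subtracted from the average Cq of 4 reference genes (18S, B2m, Mrpl19, and Ywhaz), which gives log2 expression if every cycle doubles the product. All levels are log2 values with the average of the SD rats set to 0. Testing with limma, in 1 fit over the 4 groups, was limited to the 41 of 44 genes that were read in 3 or more rats of every group. P-values were two-sided and adjusted after Benjamini–Hochberg over the 41 genes with a threshold of 0.05. The limma p-values rest on 1 spread between rats per gene, shared by the 4 groups and drawn toward that of the other genes. Exact permutation tests over the rats are given beside them, and 0.00216 is the smallest p these can give here. The mean Cq of the reference genes lay between 15.7 and 17.2 in the 23 rats. Of the SD rats, SD rat 3 stood apart, with *Gfap* at 1.80 and *Fgf2* at 1.67, but it lay inside the range of the other SD rats for *Icam1* (0.30), *Tnfrsf12a* (−0.095), and *Sphk1* (−0.094).

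**Figure D1:**
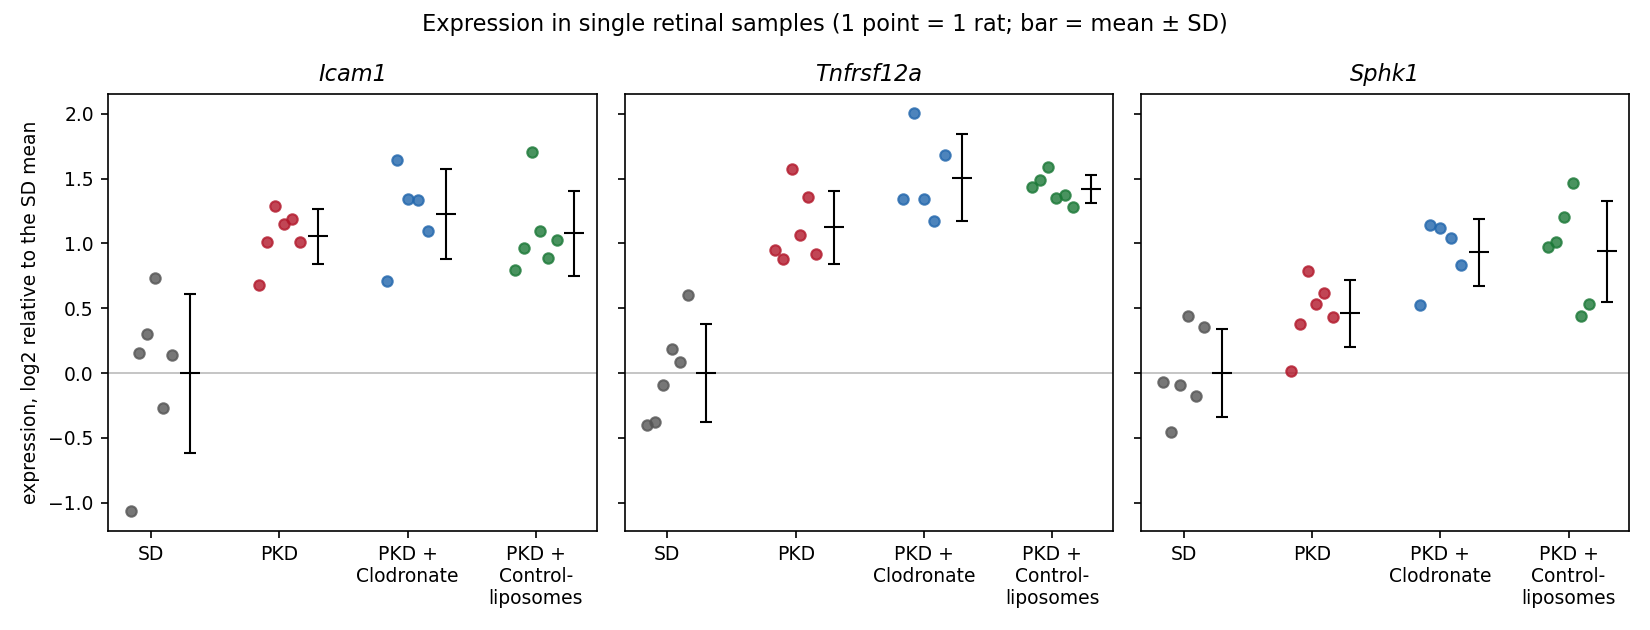
Expression of *Icam1*, *Tnfrsf12a*, and *Sphk1* on the log2 scale relative to the SD mean (vertical axis) in the 4 groups (horizontal axis), with 1 point per rat and bars for mean ± SD. All 6 PKD rats lie above all 6 SD rats for *Tnfrsf12a*, whereas the groups overlap for *Icam1* and *Sphk1*, and the *Sphk1* means are 0.93 and 0.94 in the liposome groups and 0.46 in untreated PKD rats.

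The first comparison addressed what differs in the retina of untreated PKD rats relative to SD rats. *Icam1* and *Tnfrsf12a* were each about doubled in level, at 2.08-fold and 2.18-fold of the SD rats, while *Sphk1*, at 1.38-fold, did not pass the adjusted threshold. Thus 2 of the 3 genes were called higher, against 34.1% of all 41 tested genes called higher and 36.6% called in either direction. The median log2 difference of all tested genes was 0.44, so that *Icam1* lay 0.61 and *Tnfrsf12a* 0.68 above this median and *Sphk1* 0.020 above it. By size of the difference, *Tnfrsf12a* ranked 9, *Icam1* 10, and *Sphk1* 20 among the 41 genes.

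For *Icam1*, the adhesion molecule, the SD rats ranged from −1.06 to 0.74 with a median of 0.15, and the PKD rats from 0.68 to 1.29 with a median of 1.08. SD rat 4, at 0.74, was the SD rat that reached into the PKD range, and SD rat 1 was the lowest, at −1.06. The mean difference was 1.06 (standard error 0.251, 95% confidence interval 0.54 to 1.57, adjusted p = 0.00134 in limma), and the exact permutation test gave p = 0.00433 (adjusted p = 0.0177). The SD of the expression was 0.614 in SD rats and 0.213 in PKD rats.

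*Tnfrsf12a*, the TWEAK receptor, was separated already in the Cq values before normalization. They were 25.64 to 25.98 in SD rats and 24.42 to 25.03 in PKD rats. After normalization, SD rats ranged from −0.40 to 0.60 with a median of −0.0063, and PKD rats from 0.88 to 1.58 with a median of 1.01. No PKD rat overlapped an SD rat, which was so for 6 of the 41 tested genes (14.6%), *Tnfrsf12a* included. The mean difference was 1.13 (standard error 0.207, 95% confidence interval 0.70 to 1.55, adjusted p = 8.39e-05 in limma), and the exact permutation test gave p = 0.00216 (adjusted p = 0.0148).

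*Sphk1*, the sphingosine kinase, ranged from −0.45 to 0.44 in SD rats with a median of −0.081, and from 0.019 to 0.79 in PKD rats with a median of 0.48. All 6 PKD rats were above the SD mean but only 3 were above the highest SD rat. The difference of 0.46 (standard error 0.217, 95% confidence interval 0.014 to 0.91) had an adjusted p = 0.100 in limma, and 0.0439 before adjustment. The exact permutation test gave p = 0.0195, which became 0.0532 after adjustment. Without SD rat 4, the highest of the SD rats, the difference was 0.55 and passed in limma (adjusted p = 0.0470).

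These calls rest on the reference genes. Those of *Icam1* and *Tnfrsf12a* held in limma with any 1 of the 4 left out and with Mrpl19 and Ywhaz alone. The average of the specific genes is a reference that itself includes genes called higher in PKD rats. When the average of the specific genes was taken as the reference, the median difference of all tested genes between PKD and SD rats moved by −0.82, *Icam1* fell to 0.23 and *Tnfrsf12a* to 0.30 (adjusted p = 0.221 for both in limma), and *Sphk1* turned to −0.36 (adjusted p = 0.121). Since every gene moves by the same amount under such a scaling, the distance of the 3 genes from the median of the card was the same under each. B2m, 1 of the 4 reference genes, encodes the light chain of MHC class I. Its mean Cq was 17.9 in SD, 17.5 in PKD, 17.2 in PKD + Clodronate, and 17.2 in PKD + Controlliposomes rats. Leaving B2m out raised the PKD difference of *Icam1* to 1.23, of *Tnfrsf12a* to 1.30, and of *Sphk1* to 0.63. The mean Cq of Ywhaz (17.53 in SD, 17.98 in PKD rats) and 18S (6.72 and 7.10) moved the other way. Without Ywhaz the 3 differences fell to 0.96, 1.03, and 0.36, in the same order of genes. Without 18S they fell to 0.98, 1.05, and 0.39, and without Mrpl19 they were 1.05, 1.12, and 0.46.

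Both liposome groups were next set against SD rats to order the 4 levels. Here all 3 genes were called higher in both groups. The background was 46.3% of the tested genes called higher (51.2% in either direction) for PKD + Clodronate and 56.1% (63.4% in either direction) for PKD + Controlliposomes. Of the 41 tested genes, 9 did not overlap with the SD rats in PKD + Clodronate rats and 12 (29.3%) in PKD + Controlliposomes rats. These comparisons use the same 6 SD rats as the first and are not independent of it. With the average of the specific genes as the reference, *Tnfrsf12a* in PKD + Clodronate rats was the 1 of these 6 differences that still passed (0.63, adjusted p = 0.0203 in limma).

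*Icam1* in the 5 PKD + Clodronate rats was at 0.71, 1.65, 1.34, 1.34, and 1.10, and in the 6 PKD + Controlliposomes rats it ranged from 0.79 to 1.71 with a median of 1.00. The lowest clodronate-treated rat, at 0.71, lay below SD rat 4, and every rat given control liposomes was above every SD rat (29.3% of the tested genes did not overlap there). Levels were 2.34-fold (adjusted p = 0.000335) and 2.11-fold (adjusted p = 0.000731 in limma) of the SD rats.

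*Tnfrsf12a* was at 1.34, 2.0, 1.34, 1.17, and 1.68 in PKD + Clodronate rats and between 1.28 and 1.59 with a median of 1.41 in PKD + Controlliposomes rats. Both groups lay above all SD rats, and 9 and 12 of the 41 tested genes had no overlap in these comparisons. The control liposome-treated rats were the most alike, with an SD of 0.110 against 0.281 in untreated PKD and 0.333 in clodronate-treated rats, a difference in spread that was not tested. The levels were 2.85-fold (adjusted p = 2.31e-06) and 2.68-fold (adjusted p = 1.99e-06 in limma) of the SD rats.

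*Sphk1* was at 0.52, 1.14, 1.12, 1.04, and 0.83 in PKD + Clodronate rats and between 0.44 and 1.47 with a median of 0.99 in PKD + Controlliposomes rats. Both groups lay above all SD rats, so that *Sphk1* is among the 9 and 12 genes without overlap, and the untreated PKD rats did not. The lowest control liposome-treated rat and the highest SD rat were both at 0.44 and differed by only 0.0029. The levels were 1.91-fold (adjusted p = 0.00126) and 1.92-fold (adjusted p = 0.000731 in limma) of the SD rats.

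**Figure D2:**
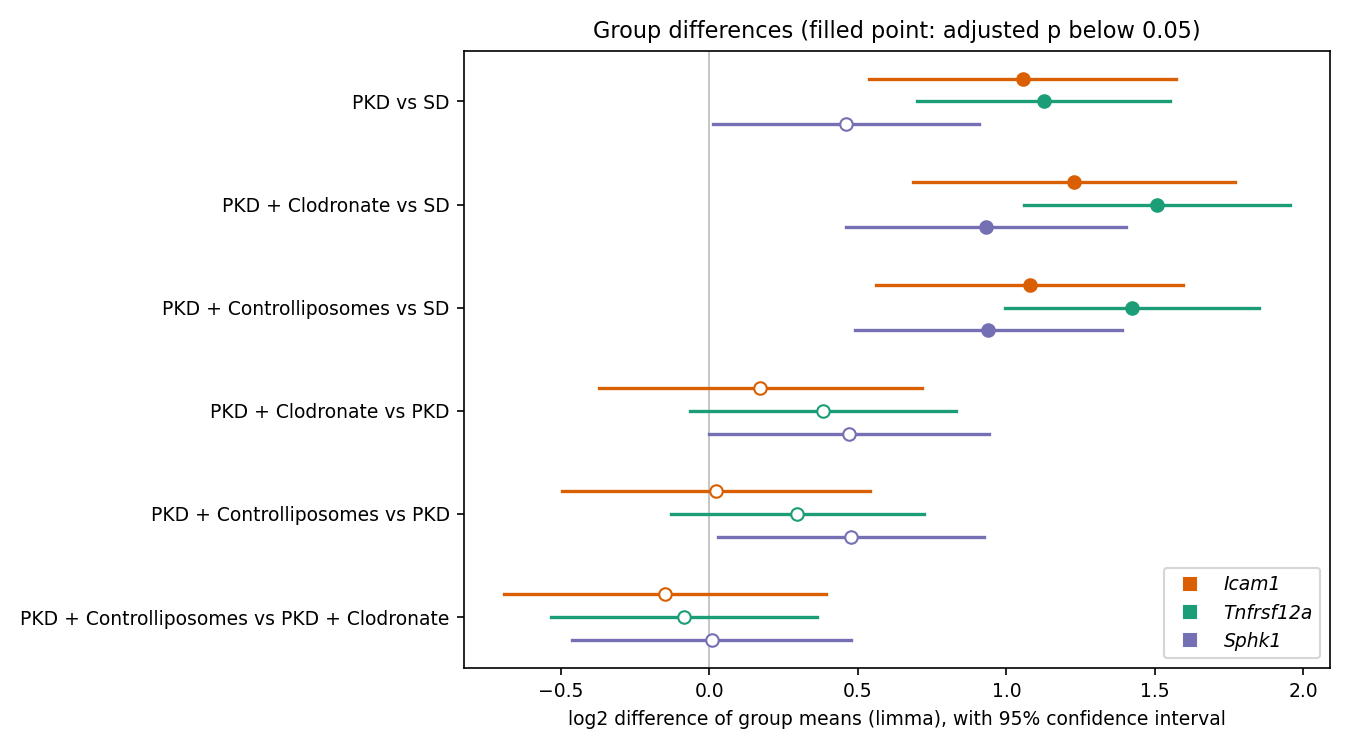
Log2 differences of group means (horizontal axis, limma, with 95% confidence intervals) for the 6 comparisons (vertical axis) and the 3 genes, with filled points where the adjusted p was below 0.05. All differences from SD rats are filled except *Sphk1* in untreated PKD rats (0.46), and no difference among the PKD groups is filled.

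The question of the treatment comparisons was whether expression in PKD rats differed after injection of clodronate-coated or control liposomes. The untreated PKD rats had no injection, so injection and liposomes cannot be told apart in the comparisons with them. None of the 3 genes passed in any comparison among the 3 PKD groups. For PKD + Clodronate against PKD, 0% of the 41 genes were called in limma, with 5 at an unadjusted p under 0.05 and 8 by the exact permutation test before adjustment. For PKD + Controlliposomes, 2.44% were called against PKD and 4.88% against PKD + Clodronate. Against PKD, 7 of the 41 genes were at an unadjusted p under 0.05 in limma. By the exact permutation test 12 were, and 4 passed after adjustment. The same 6 untreated PKD rats serve in both comparisons with the liposome groups, and the tests against SD rats use all of these animals again.

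For *Icam1*, the difference from untreated PKD rats was 0.17 with clodronate (95% confidence interval −0.37 to 0.71, adjusted p = 0.736 in limma) and 0.023 with control liposomes (−0.49 to 0.54, adjusted p = 0.950). The upper ends of these intervals are 0.71 and 0.54. Between the liposome groups the difference was −0.15 (−0.69 to 0.39, adjusted p = 0.815). The direction of the last 2 values is not settled, since it turned under other sets of reference genes.

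For *Tnfrsf12a*, the differences from untreated PKD rats were 0.38 with clodronate (95% confidence interval −0.064 to 0.83, adjusted p = 0.472 in limma) and 0.30 with control liposomes (−0.13 to 0.72, adjusted p = 0.460). All 5 and all 6 treated rats were above the mean of the untreated PKD rats, but only 2 and 1 of them were above the highest untreated rat. The exact permutation tests gave p = 0.0779 and 0.0433 before adjustment and 0.355 and 0.148 after it. The liposome groups differed from each other by −0.086 (−0.53 to 0.36, adjusted p = 0.871).

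*Sphk1* had the largest differences from untreated PKD rats among the 3 genes, at 0.47 with clodronate and 0.48 with control liposomes. The median differences of all tested genes were 0.020 and 0.22. *Sphk1* lay 0.45 and 0.26 above these medians and *Tnfrsf12a* 0.36 and 0.082 above them, while *Icam1* lay at 0.15 and −0.19 from them. For *Sphk1*, the 95% confidence intervals were 0.00051 to 0.94 and 0.030 to 0.93. Its unadjusted p-values were 0.0498 and 0.0373, and the adjusted p-values 0.399 and 0.250 in limma. In each liposome group, 4 rats were above the highest untreated PKD rat. The exact permutation tests gave p = 0.0195 and 0.0281 before adjustment and 0.192 and 0.124 after it. Between the liposome groups, with and without clodronate, the difference was 0.0080 (−0.46 to 0.48, adjusted p = 0.982), an interval that reaches as far as the differences from untreated PKD rats themselves.

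For all 3 genes the mean level was lowest in SD rats, followed by untreated PKD rats and the liposome groups. The order of the liposome groups turned under other sets of reference genes for each gene, and so did that of PKD and PKD + Controlliposomes rats for *Icam1*, so no order is given for them. With the average of the specific genes as the reference, *Sphk1* was lower in PKD than in SD rats (−0.36) and in PKD + Controlliposomes than in SD rats (−0.11). The step from SD to PKD passed for *Icam1* and *Tnfrsf12a*. No neighboring groups passed for *Sphk1*, for which only the liposome groups against SD rats did.

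**Figure D3:**
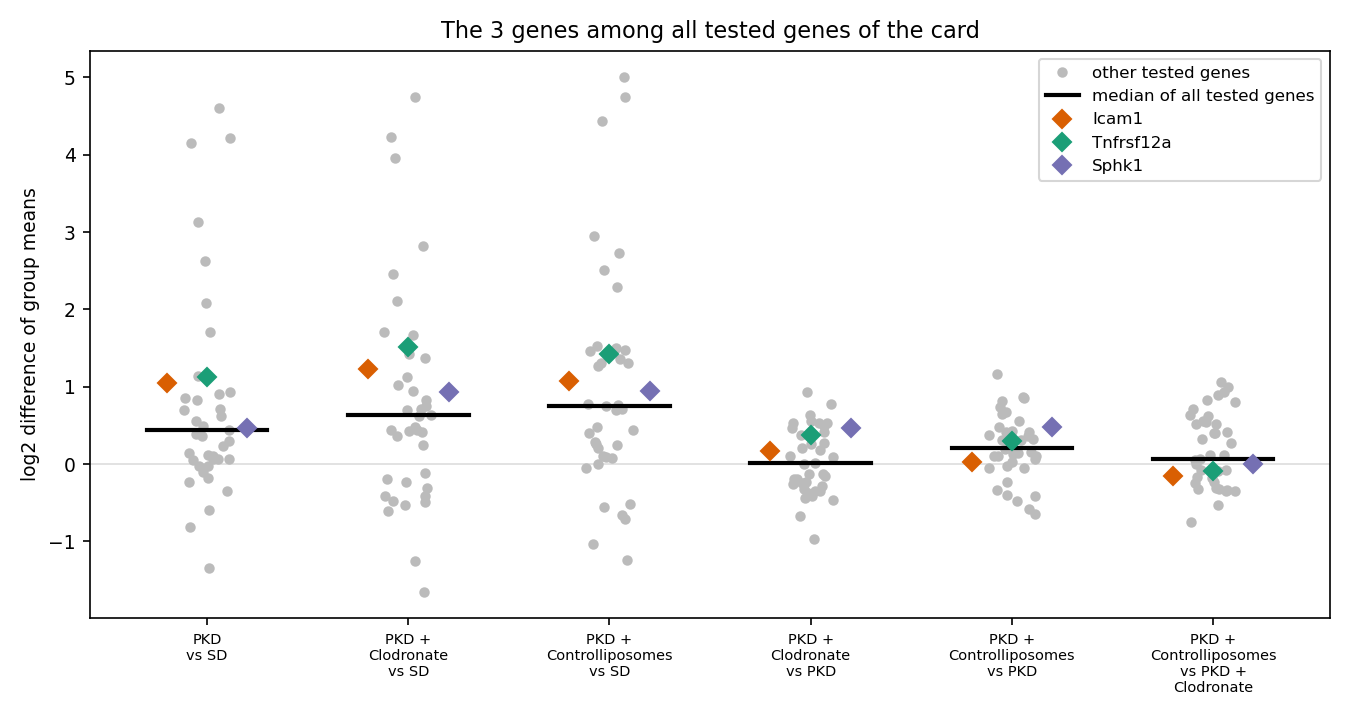
Log2 difference of group means (vertical axis) of every tested gene in each of the 6 comparisons (horizontal axis), with the 3 genes as diamonds and a black line at the median of all 41 genes. *Icam1* and *Tnfrsf12a* lie above the median in all comparisons with SD rats, whereas *Sphk1* lies on the median in PKD against SD rats (0.46 against 0.44).

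Whether the genes responded to different extents was tested with the Cq difference between 2 genes on the same card, which needs no reference gene. There were 3 pairs in 6 comparisons, and exact permutation p-values were adjusted over the 18 tests. *Tnfrsf12a* was raised relative to *Sphk1* in PKD rats. Relative to the SD mean, the *Tnfrsf12a* over *Sphk1* value ranged from −0.33 to 0.26 in SD rats and from 0.48 to 0.93 in PKD rats, without overlap. The difference was 0.66 (exact permutation p = 0.00216, adjusted p = 0.0130), and it passed without any single rat of the 2 groups (adjusted p up to 0.0390).

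*Sphk1* over *Icam1* was lower in PKD than in SD rats by this measure. Values ranged from −0.61 to 1.00 in SD rats and from −0.66 to −0.50 in PKD rats, so that the PKD rats overlapped the lower SD rats, and 3 of them were below the lowest. The difference was −0.59 (exact permutation p = 0.00866, adjusted p = 0.0390). It was −0.39 without SD rat 1, the rat with the lowest *Icam1* level, and with any 1 of the PKD rats left out it was −0.61 to −0.58 and not called (exact permutation p of 0.0303 to 0.0368, adjusted p of 0.0909 to 0.110). *Tnfrsf12a* and *Icam1* were not told apart in any comparison, with differences of 0.063 to 0.34 and adjusted p-values of 0.245 or more in exact permutation tests.

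The untreated PKD rats had nearly the same *Sphk1* over *Icam1* value, with an SD of 0.0551 against 0.576 in SD, 0.123 in PKD + Clodronate, and 0.387 in PKD + Controlliposomes rats. PKD + Clodronate rats ranged from −0.50 to −0.19 and PKD + Controlliposomes rats from −0.50 to 0.37. All treated rats were above all untreated PKD rats, but the nearest rats of the groups were apart by only 9.7e-05 and 0.00026 cycles. The differences from untreated PKD rats were 0.30 and 0.46 (exact permutation p = 0.00216, adjusted p = 0.0130 for both). With any 1 PKD rat left out, the treated rats still lay above all remaining untreated ones and the differences were 0.28 to 0.32 and 0.44 to 0.47. The exact permutation p was then 0.00794 with clodronate, the smallest that 5 rats against 5 allow, which is not called over 18 tests (adjusted p = 0.0714) and says nothing on stability. With control liposomes it was 0.0238 to 0.0368 (adjusted p of 0.0857 to 0.110). Neither was called in an ordinary linear model with 1 spread for the 4 groups (adjusted p = 0.403 and 0.151).

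**Figure D4:**
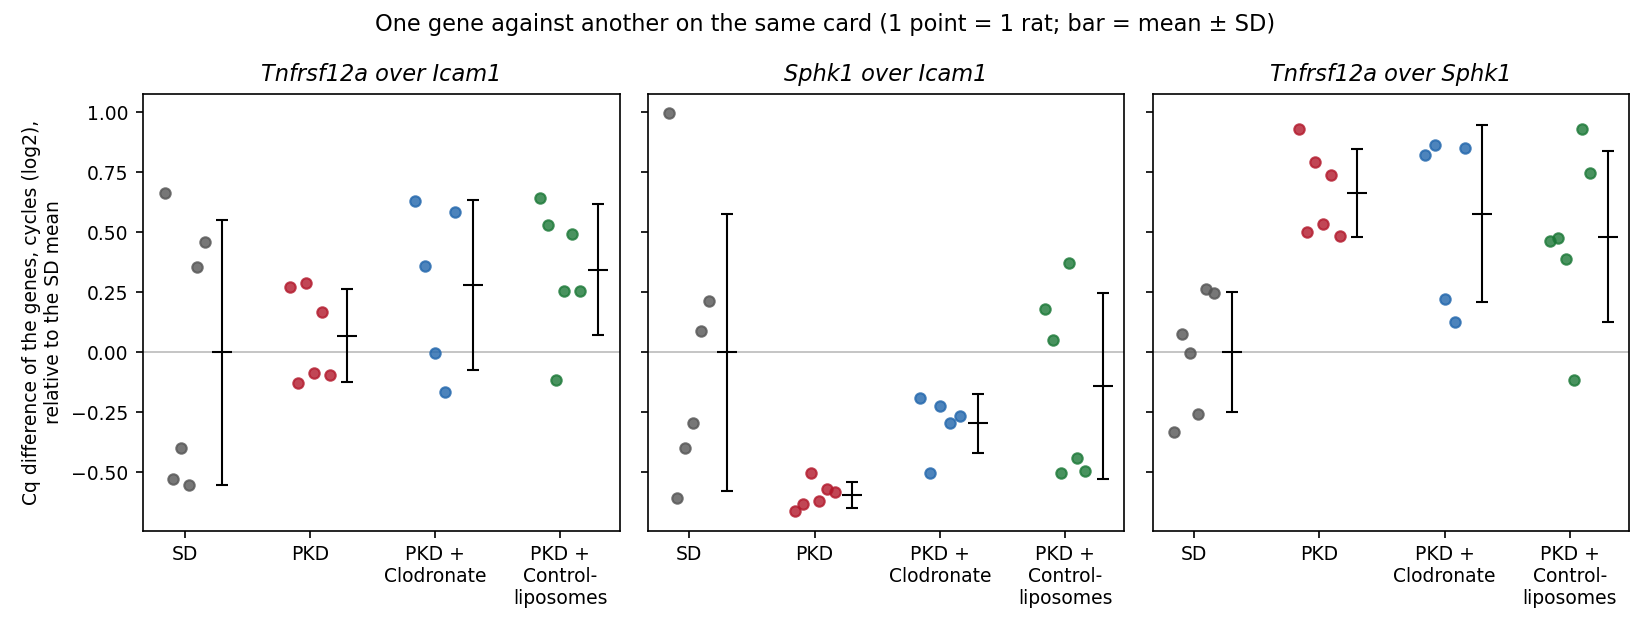
Cq difference between 2 of the genes on the same card, in cycles relative to the SD mean (vertical axis), for the 4 groups (horizontal axis), with 1 point per rat and bars for mean ± SD. The PKD rats lie above all SD rats for *Tnfrsf12a* over *Sphk1*, and for *Sphk1* over *Icam1* they are within 0.156 cycles of each other.

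Other genes of the card known as TNF and NF-κB responses (*Tnf*, *Il1b*, *Il6*, *Nos2*, *Lcn2*, and *C3*) were counted as a list. Calls in this and the following lists are those of limma, and exact permutation tests are given where they differ. In PKD against SD rats, 2 of 6 passed, both higher (34.1% of all tested genes were called higher), *C3* (complement component; 1.13, adjusted p = 0.00555) and *Lcn2* (the siderophore-binding protein lipocalin-2; 2.09, adjusted p = 0.000366), and the median of the list was 0.73 against 0.44 for all tested genes. *Tnf* itself was at 0.11 (adjusted p = 0.864 in limma). None of the 6 passed in PKD + Clodronate against PKD (median 0.064 against 0.020) or between the liposome groups (0.46 against 0.069). With control liposomes, *C3* was higher than in untreated PKD rats (1.16, adjusted p = 0.0490), with a list median of 0.31 against 0.22. This call of *C3* was lost without B2m, Mrpl19, or Ywhaz as reference (adjusted p of 0.0694 to 0.156) and in all but 2 of the 12 fits with 1 rat left out (adjusted p up to 0.161, differences 1.02 to 1.33). Against SD rats, 3 were higher with clodronate (*C3*, *Lcn2*, and the cytokine *Il1b*, against 46.3% of all genes), and with control liposomes 4 were higher (also *Il6*, against 56.1%) and *Nos2*, the inducible nitric oxide synthase, was lower (−1.24, adjusted p = 0.0342 in limma). In exact permutation tests *Nos2* and *Il1b* did not pass with control liposomes (adjusted p = 0.0695 and 0.0919). The medians were 0.79 and 1.11, against 0.63 and 0.75 for all tested genes.

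Of 6 vascular growth and tone factors (*Vegfa*, *Pgf*, *Fgf2*, *Edn2*, *Tgfb1*, and *Tgfb2*), 2 were higher in PKD than in SD rats, the growth factor *Fgf2* (3.13) and the vasoconstrictor peptide gene *Edn2* (4.60), against 34.1% of all tested genes called higher. The list median was 0.27 against 0.44 for all tested genes. *Pgf*, placental growth factor, joined them against SD rats with clodronate (1.03, adjusted p = 0.00884) and with control liposomes (0.71, adjusted p = 0.0444 in limma, 0.0919 in the exact permutation test), where *Vegfa* was lower (−0.66, adjusted p = 0.00921). The shares of all genes called higher were 46.3% and 56.1%. None of the 6 passed in limma among the PKD groups. In the exact permutation test, *Fgf2* was lower with control liposomes than in untreated PKD rats (−0.40, adjusted p = 0.0296, against 0.460 in limma), with no overlap of the groups. With clodronate the *Fgf2* difference was larger (−0.68), also without overlap. It passed in neither test (adjusted p = 0.0887 in the exact permutation test and 0.391 in limma). The shares of tested genes without overlap were 7.32% with control liposomes and 2.44% with clodronate. The list medians were 0.83 and 0.57 against SD rats (all genes 0.63 and 0.75), 0.070 and 0.15 against untreated PKD rats (0.020 and 0.22), and −0.12 between the liposome groups (0.069).

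*Itgam* encodes the α chain of Mac-1, an integrin that binds ICAM-1. Its level ranged from −0.53 to 0.67 in SD, from 0.56 to 1.06 in PKD, from 0.46 to 0.93 in PKD + Clodronate, and from 1.19 to 1.91 in PKD + Controlliposomes rats. *Itgam* was thus higher in rats given control liposomes than in all other PKD rats, whereas *Icam1* ranges of the PKD groups overlapped. Against SD rats, *Itgam* passed in PKD (0.83, adjusted p = 0.00275), PKD + Clodronate (0.70, adjusted p = 0.0112, but 0.0514 in the exact permutation test), and PKD + Controlliposomes (1.50, adjusted p = 1.52e-06 in limma). It passed between the liposome groups (0.81, adjusted p = 0.0278). In control liposome-treated against untreated PKD rats (0.67) it passed in the exact permutation test (adjusted p = 0.0296) and not in limma (adjusted p = 0.0844), and neither test called it in clodronate-treated against untreated PKD rats (−0.13, adjusted p = 0.738).

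Markers of microglia and macrophages were counted in the same way. Of 11 (*Aif1*, *Itgam*, *Cd74*, *Tyrobp*, *Trem2*, *Fcgr3a*, *Fcgr2a*, *Lgals3*, *Stab1*, *Mrc1*, and *C5ar1*), 3 were higher in PKD than in SD rats (*Itgam*, *Lgals3*, and *Tyrobp*), the same 3 in PKD + Clodronate against SD rats, and 5 in PKD + Controlliposomes against SD rats (also *Aif1* and *Fcgr3a*). The shares of all tested genes called higher were 34.1%, 46.3%, and 56.1%, and *Lgals3* in PKD against SD rats did not pass in the exact permutation test (adjusted p = 0.0940). Against untreated PKD rats none passed in limma in either liposome group, whereas *Aif1* (0.65, adjusted p = 0.0444) and *Itgam* passed with control liposomes in the exact permutation test. That test called 4 of all 41 tested genes there. *Aif1* and *Itgam* were also higher with control liposomes than with clodronate, where 4.88% of all tested genes were called in limma. The mean level of the 11 markers ranged from −1.05 to 0.67 in SD, −0.11 to 0.56 in PKD, 0.043 to 0.80 in PKD + Clodronate, and 0.33 to 1.28 in PKD + Controlliposomes rats, and each marker had a Cq in every rat. The list medians were 0.30, 0.43, and 0.47 against SD rats, below those of all tested genes (0.44, 0.63, and 0.75). They were 0.091 and 0.42 against untreated PKD rats (all genes 0.020 and 0.22) and 0.11 between the liposome groups (0.069). *Gfap* and *Serpina3n*, genes of reactive Müller glia and astrocytes, were higher than in SD rats in all 3 PKD groups (median 3.39, 3.39, and 3.98), and neither passed among the PKD groups (medians 0.0033, 0.59, and 0.59). The part of these cells in the levels of the 3 genes was not tested. The card holds no endothelial, pericyte, or photoreceptor marker, and in whole retinae fewer cells of a type and less RNA per cell cannot be told apart.

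The genes with the most similar pattern were searched among 39 others with a Cq in all 23 rats, by the root mean square difference of the levels relative to the SD mean. The 23 rats share the group differences and the reference genes, so the measure is a description. For *Icam1* they were *Tyrobp*, the signaling adaptor of myeloid receptors (0.314), *Tnfrsf12a* (0.402), and *Pgf* (0.462), with a median of 0.900 over all genes. For *Tnfrsf12a* they were *Icam1* (0.402), *Itgam* (0.502), and *Tyrobp* (0.512), with a median of 1.11. For *Sphk1* they were *Tyrobp* (0.388), *Il1b* (0.415), and *Pgf* (0.449), with a median of 0.797. *Tyrobp* was at 0.85 ± 0.208 (SD, n = 6) in PKD, 0.94 ± 0.328 (n = 5) in PKD + Clodronate, and 1.27 ± 0.483 (n = 6) in PKD + Controlliposomes rats.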

How the data were processed

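Retinal RNA of single rats was measured on TaqMan cards with 48 wells (44 specific and 4 reference genes). The deposited values are Cq, a unit other than counts or intensities, read in each well after 14 cycles of pre-amplification and at most 40 PCR cycles, before subtraction of reference genes. They also deposited fold changes of group means, which hold the study's own comparisons and were not used. Columns are animals, whose group was taken from the study's sample list. Wells were named by matching Cq values to a list by gene symbol (48 of 48 wells, tolerance 0.001). Of 34 columns, 11 were not used, since neither labels nor list name their group, so the PKD + PBS and SD + Clodronate groups were not analysed here. A Cq was missing in 57 of 1104 wells, which were left out. Copy numbers behind the Cq values are unknown, and precision rests on the 5 or 6 rats of a group.

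Each gene's Cq was subtracted from the average Cq of the reference genes 18S, B2m, Mrpl19, and Ywhaz. Groups were compared with limma 3.58.1 (lmFit, eBayes) in R 4.3.3, for 41 genes with at least 3 Cq values per group, and by exact permutation tests in Python 3.11.15. Both were run on simulated normal data with the same spread in every group, so these runs do not cover groups of unequal spread as found here. Plots were drawn with matplotlib 3.10.9. Sequences are from RefSeq (GRCr8), in which all 3 symbols matched. Alternatives were other reference sets, the mean of the specific genes, a fit of the compared groups, an ordinary linear model, permutation tests, empty wells at 40, Cq above 35 dropped, complete genes only, and leaving out each rat. The pooled liposome groups were tested after the values were seen.

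Named are the 3 genes, the reference genes, members of the listed groups, and the 3 most similar genes of each. The genes and lists were chosen with earlier results of these data known.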

Additional observations from a re-analysis of the deposited data

Results flagged for a closer look

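In PKD + Controlliposomes rats, 1 rat had an *Icam1* level of 1.71 on the log2 scale relative to the SD mean, apart from the other 5 at 0.79 to 1.09. Its gap to the nearest rat was 0.670 of the range of the group. In *Sphk1* the same rat was at 1.20 and in *Tnfrsf12a* at 1.59, the highest of its group in *Tnfrsf12a*. Of 24 groups of values searched in this way, this was the only one, and chance gives about 1.2. No explanation was tested.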

How the results depend on the processing

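Leaving out single reference genes, a fit of the compared groups, the permutation test, and the treatment of empty or late wells changed no call of the 3 genes. With the mean of the specific genes as reference, *Icam1* and *Tnfrsf12a* were at 0.23 and 0.30 (adjusted p = 0.221 for both) in PKD against SD rats, *Icam1* and *Sphk1* at 0.34 and 0.049 in PKD + Clodronate against SD rats, and *Icam1* and *Tnfrsf12a* at 0.030 and 0.37 in PKD + Controlliposomes against SD rats, none of which passed, and *Sphk1* turned to −0.36 (PKD against SD) and −0.11 (PKD + Controlliposomes against SD). That reference moved the median of all genes by −0.82 (PKD), −0.88 (PKD + Clodronate), and −1.05 (PKD + Controlliposomes) against SD rats. Small differences that were never called changed sign. For *Icam1* in control liposome-treated against untreated PKD rats they were −0.20 with this reference, −0.099 without Mrpl19, and −0.029 without Ywhaz. Between the liposome groups, *Icam1* and *Tnfrsf12a* were at 0.0074 and 0.070 without 18S and at 0.047 and 0.11 with Mrpl19 and Ywhaz alone, and *Sphk1* was at −0.018 without B2m, −0.065 without Mrpl19, −0.050 without Ywhaz, and −0.16 with the mean of the specific genes. In an ordinary linear model, *Sphk1* over *Icam1* at 0.30 and 0.46 was not called in either liposome group against PKD (adjusted p = 0.403 and 0.151), and *Tnfrsf12a* over *Sphk1* at 0.58 and 0.48 was called in both against SD rats (adjusted p = 0.0405 and 0.0487, from 0.0649 in exact permutation tests). The number of genes called moved from 15 to 23 in PKD against SD rats and from 0 to 2 in PKD + Clodronate against PKD with the mean of the specific genes (1 with empty wells at 40), between 0 and 5 in PKD + Controlliposomes against PKD, and between 0 and 3 between the liposome groups.

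With single rats left out, *Sphk1* in PKD against SD rats was at 0.37 to 0.55 and passed only without SD rat 4. *Icam1* in PKD + Controlliposomes against PKD was at −0.10 to 0.080, and between the liposome groups *Tnfrsf12a* was at −0.17 to 0.038 and *Sphk1* at −0.097 to 0.11. *Sphk1* over *Icam1* was at −0.72 to −0.39 in PKD against SD rats, 0.27 to 0.35 in PKD + Clodronate and 0.35 to 0.53 in PKD + Controlliposomes against PKD, with no call without any 1 PKD rat (in PKD + Clodronate the p was the smallest that 5 rats against 5 allow), and at −0.26 to 0.061 in PKD + Controlliposomes against SD rats. *Tnfrsf12a* over *Icam1* was at −0.041 to 0.20 in PKD against SD rats and −0.049 to 0.15 between the liposome groups. *Tnfrsf12a* over *Sphk1* was at −0.16 to 0.025 in PKD + Clodronate against PKD, −0.21 to 0.025 between the liposome groups, and 0.39 to 0.60 in PKD + Controlliposomes against SD rats, passing without PKD + Controlliposomes rat 4. Without SD rat 3 no call of the 3 genes changed. The cause of these changes was not tested. No paired analysis was possible because the columns carry no replicate numbers of the labels.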

Other observations

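The pooled liposome groups (11 rats) were compared with the 6 untreated PKD rats after the values were seen, by exact permutation over 12376 splits with adjustment over 41 genes. The untreated rats had no injection, so injection and liposomes cannot be told apart here either. *Sphk1* was 0.94 ± 0.321 (SD) against 0.46 ± 0.260, a difference of 0.47 (exact permutation p = 0.00751, adjusted p = 0.0770), with 10 of 11 treated rats above the PKD mean and 8 above the highest PKD rat. *Tnfrsf12a* differed by 0.34 (exact permutation p = 0.0170, adjusted p = 0.139) and was above the PKD mean in 11 of 11 treated rats. *Icam1* differed by 0.091 (exact permutation p = 0.553), with 6 of 11 treated rats above the PKD mean. None of the 3 genes passed after adjustment, and 2 of the 41 genes did.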
